A study of Homo sapiens with 8 samples.

Results

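The 45 genes described here encode nucleolar factors of ribosome biogenesis. They form a list given by name: subunits and cofactors of RNA polymerase I, proteins of small nucleolar ribonucleoproteins (snoRNPs), assembly factors of the small and large ribosomal subunits, and abundant nucleolar proteins. Their peaks were found in 2 lists of N4-acetylcytidine (ac4C) immunoprecipitation peaks, and 34 of the 45 had a named peak in at least 1 list, among 7356 named genes with a peak in all. The study sequenced RNA pulled down with an ac4C antibody, and its input RNA, from SiHa cells, a cervical cancer line, and from KONAT10SiHa cells, SiHa cells with a knockout of NAT10. Each of the 4 groups (input and IP of either population) had 2 biological replicates. The labels do not say how the knockout was made or whether it is 1 clone. The list whose name adds a K to SiHa was read as that of the knockout, which no label states in words.

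Ribosomes are built in the nucleolus, where RNA polymerase I transcribes the ribosomal RNA (rRNA) precursor. SnoRNPs then modify the precursor, and assembly factors fold and cut it into the RNAs of the small and large subunits. NAT10, the enzyme that forms ac4C, is itself a nucleolar factor of this pathway and acetylates the rRNA of the small subunit. The peaks below carry the identifiers of genes for the other factors, and without exons they cannot be placed on spliced transcripts.

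The SiHa list held 12924 peaks in 7291 genes and the knockout list 4557 peaks in 3726 genes. Each peak is made of 1 or more blocks, with gaps where the peak skips genomic sequence. The lists give a p-value for each peak and, for the knockout alone, a false discovery rate and a fold enrichment, all as the authors deposited them. Peak strength below means only −log10 of that p, so that a stronger peak is one with a smaller p. It is not a measure of enrichment, and the SiHa list gives no fold to set beside it. The lists hold no replicate values, read counts or expression levels. The depth is therefore unknown, no difference between the lists has a replicate check, and a missing peak does not show that ac4C or the transcript was absent. Of 8 epithelial markers 5 had a peak in either list, among them KRT7, whose peak bases all lie in a pseudogene span as well. Of 9 markers of blood, liver, endothelial and connective tissue cells 7 had a peak, among them HBB, HBA1 and ALB. Their part in the results below was not tested.

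Most members had ac4C peaks in SiHa cells, and about as many of these genes had a knockout peak as did not. A SiHa peak was found in 32 of the 45 members and a knockout peak in 18. Among 126 other ribosome biogenesis genes 66 had a SiHa peak and 22 a knockout peak. Over all 38386 protein-coding or lncRNA gene spans, which were not filtered by expression, the named genes numbered 6003 and 3048. Peaks were listed in SiHa alone for 16 members, in both lists for 16 and in the knockout alone for 2, TCOF1 and IMP4. No peak lay in 10 members: FBL, RRP9, UTP6, UTP18, UTP20, NOL6, DDX47, WDR12, NOP16 and GNL2. The peaks in DDX10, a helicase, touched a further gene span whose strand is not listed, so they received no name. They were a SiHa peak of 330 bases (−log10 p 16.1) and a knockout peak of 121 bases (fold 4.61) elsewhere in the gene, and they are left out of the counts.

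Of the members with a SiHa peak, 50% (16 of 32, exact Clopper-Pearson 95% interval 31.9 to 68.1%) had no knockout peak, against 71.8% over all named genes with a SiHa peak and 73.0% over all identifiers, named or not. The interval covers the counting of genes only. Strength differed too. The median −log10 p of the strongest SiHa peak was 17.8 in members and 10.1 in all named genes, and the share of named genes without a knockout peak was 83.3% in the weakest 25% of genes and 60.1% in the strongest 25%. Of the 13 members in that strongest class 4 had no knockout peak, and of the 3 in the weakest class 2 had none. In the second weakest class it was 5 of 7 members, against 73.8% of named genes. In the next it was 5 of 9, against 69.6%, so the members stood farthest from all named genes in the strongest class. In the other direction, 2 of the 18 members with a knockout peak (11.1%) had no SiHa peak, against 44.4% of all named genes with a knockout peak. No test was made of these differences, since neither genes nor peaks are replicates and the list was drawn up with earlier results known.

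**Figure D1:**
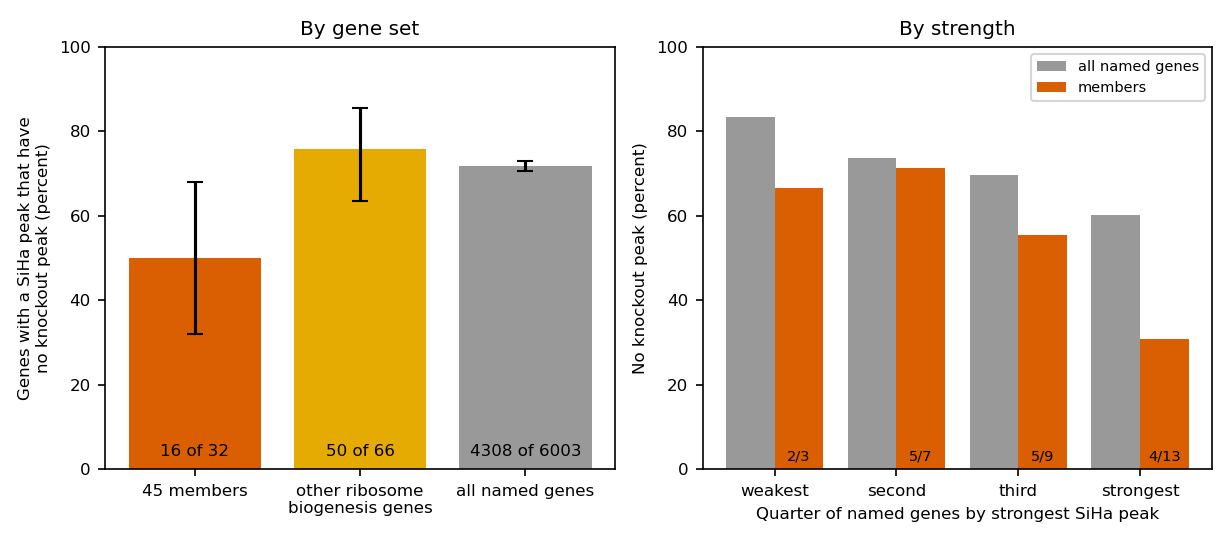
Share of genes with a SiHa peak that have no knockout peak (y axis, percent). Left, the members, other ribosome biogenesis genes and all named genes with exact 95% binomial intervals as error bars and the counts printed in the bars; right, members (orange) and all named genes (grey) in 4 classes of 25% by strongest SiHa peak, with member counts. The members stand at 50% and all named genes at 71.8%.

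When a gene counted as present in both lists only if a knockout peak shared a base with one of its SiHa peaks, the gap was narrower: 25 of 32 members (78.1%) had no such peak, against 88.9% of all named genes. Among single peaks, 7 of the 59 SiHa peaks of members shared a base with a knockout peak (11.9%, exact interval 4.91 to 22.9%), against 6.89% of the SiHa peaks of all named genes. Of the 16 members with peaks in both lists, 9 had no overlapping pair and 7 (43.8%) had one. This lay near the share over all named genes with peaks in both lists, 39.4% (668 of 1695).

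The multifunctional nucleolar proteins had some of the strongest SiHa peaks of the members, and all 3 had overlapping peaks in the knockout. These are only 3 genes. An overlapped peak was found in 11.1% of all named genes with a SiHa peak and in 39.4% of those with peaks in both lists. NCL encodes nucleolin, an abundant RNA-binding protein of the nucleolus. It carried a SiHa peak of 661 bases at chr2:231460488-231461925 with p listed at 0, and a second of 360 bases at chr2:231455031-231455523 (−log10 p 204.0). The single NCL knockout peak, of 180 bases with a fold of 7.8 (−log10 p 27.4), lay wholly inside the second. The stronger NCL peak, nearer the 5′ end, had no knockout counterpart.

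NPM1 encodes nucleophosmin, a nucleolar chaperone. Its SiHa peak of 240 bases at chr5:171391748-171392897 (p listed at 0) was covered whole by a knockout peak of 300 bases. That knockout peak had a fold of 3.57 and a −log10 p of 450.0, the lowest fold and the smallest p among the 24 knockout peaks of members. Each population had 1 further NPM1 peak, and these lay 2047 bases apart. DDX21 encodes a helicase that takes part in RNA polymerase I transcription and rRNA processing. Its SiHa peaks were of 330 bases at chr10:68959909-68960238 (−log10 p 301) and of 420 bases, the second weaker. The DDX21 knockout peak (180 bases, fold 10.5) shared 31 bases with the first and otherwise lay upstream of it.

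RNA polymerase I and its factors had 9 SiHa peaks in 3 of 4 members. POLR1A, the largest catalytic subunit, had 5 SiHa peaks along its span, the strongest of 661 bases at chr2:86026840-86027500 (−log10 p 16.2). A knockout peak of 180 bases (fold 30.8) shared only 1 base with it, so the overlap of this pair rests on adjoining peaks. POLR1B, the second-largest subunit, had 3 SiHa peaks close together at 87.0 to 89.6% of its span, with −log10 p from 5.36 to 20.2, and no knockout peak. UBTF, which binds ribosomal gene promoters, had weak peaks in both lists at different places (SiHa −log10 p 2.2, knockout fold 4.27). TCOF1, which encodes the scaffold protein treacle, had knockout peaks alone. They were of 151 bases each, at chr5:150396558-150396708 (fold 7.89, −log10 p 16.2) and chr5:150399918-150400068 (fold 17.4, −log10 p 16.8).

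Among the snoRNP proteins, peaks were listed for 4 of 6 members and none overlapped between the lists. These were only 5 SiHa peaks, and over all named genes 6.89% of SiHa peaks were overlapped. DKC1, the pseudouridine synthase of box H/ACA particles, had a SiHa peak of 210 bases in 3 blocks at chrX:154775300-154776855 (−log10 p 63.5) and none in the knockout. NOP56 and NOP58, core proteins of the box C/D particles that guide ribose methylation, had peaks in both lists. NOP56 had SiHa peaks of 181 and 541 bases (−log10 p 6.22 and 27.6), the longer one ending at the last base of the gene span. Its knockout peaks, each of 181 bases with folds of 4.1 and 9.03, lay between these, 508 and 598 genomic bases from the nearest SiHa peak. The NOP58 peaks (SiHa −log10 p 44.7, knockout fold 12.8) were 9423 bases apart. NOLC1, a snoRNP chaperone, had 1 SiHa peak (−log10 p 11.6). FBL, the methyltransferase of box C/D particles, had no peak in either list.

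**Figure D2:**
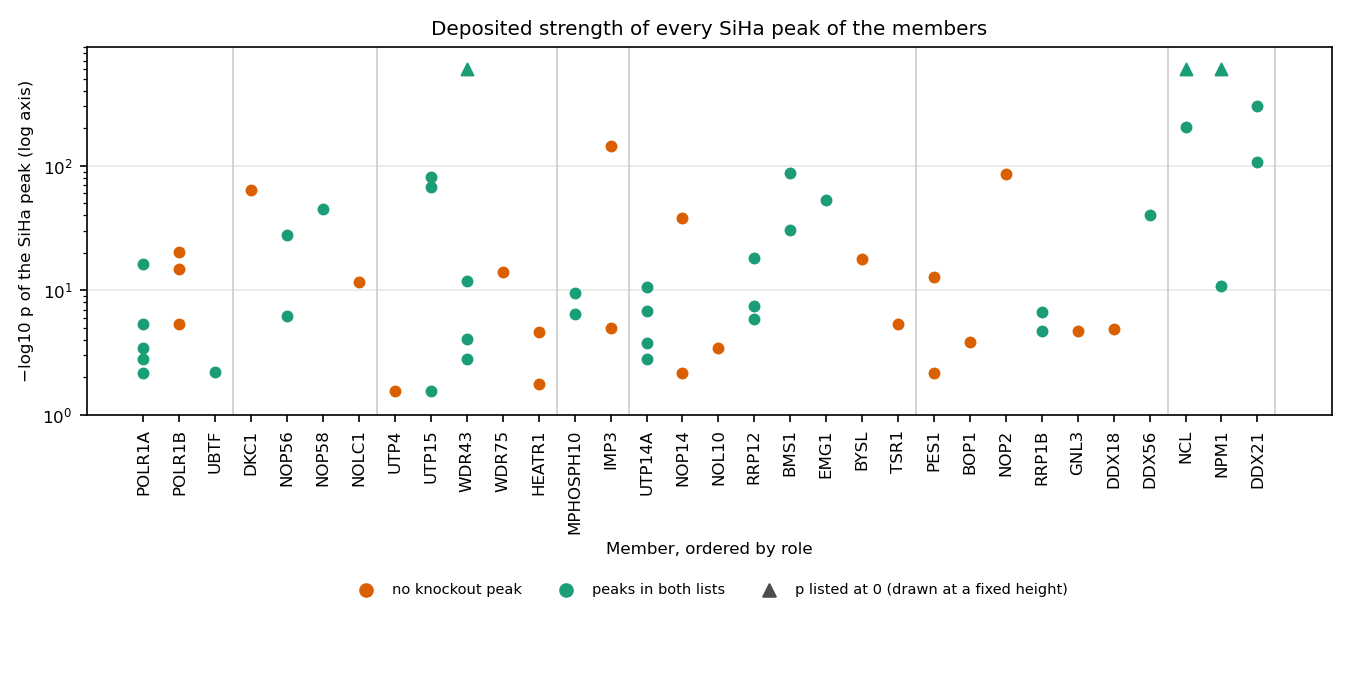
Deposited −log10 p (y axis, log scale) of each SiHa peak (points) of the 32 members with one (x axis, ordered by role). Green points belong to members with a knockout peak as well, orange points to members without; triangles at a fixed height are peaks with p listed at 0, which occur in WDR43, NCL and NPM1.

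All 5 members of UTP-A, the complex that first binds the nascent rRNA precursor, had SiHa peaks, as did 32 of the 45 members in all. Of these 5 genes 2 had a knockout peak and 3 had none, where 71.8% of all named genes with a SiHa peak had none. WDR43 had 4 SiHa peaks spread over its span. The strongest, with p listed at 0 and 629 bases in 4 blocks at chr2:28941522-28947055, lay near the 3′ end and had no knockout counterpart. The WDR43 peak that was overlapped was the weakest of the 4 (121 bases, −log10 p 2.8), 185 bases after the start of the span, and shared 91 bases with a knockout peak of fold 35.9. UTP15 had SiHa peaks with −log10 p 81.4, 67.6 and 1.57, the strongest at chr5:73579992-73580232. A UTP15 knockout peak (fold 20.5) lay 3933 bases from the nearest SiHa peak. WDR75 had a SiHa peak of 181 bases (−log10 p 14.1) and HEATR1 had 2 (−log10 p 4.6 and 1.77), without knockout peaks. UTP4 had a single weak SiHa peak (−log10 p 1.57), the lowest value among the strongest peaks of the 32 members. Neither member of UTP-B, UTP6 and UTP18, had a peak in either list.

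Peaks of 3 members reached into the window around a start site for which RefSeq sequence was at hand, and the peak bases upstream of the listed start are shown because they are where a member's peak and the upstream sequence at hand meet. Sequence was at hand for 36 of the 45 members, from 250 bases before to 50 after a start site (GRCh38.p14). Capitals mark CCG, the context in which ac4C is known in rRNA, searched as CCG on the transcribed strand and as its complement CGG. The UTP15 stretch is chr5:73565493-73565653 on the plus strand, the POLR1A stretch chr2:86105887-86105915 on the minus strand and the GNL3 stretch chr3:52686009-52686031 on the plus strand, all written 5′ to 3′.
UTP15: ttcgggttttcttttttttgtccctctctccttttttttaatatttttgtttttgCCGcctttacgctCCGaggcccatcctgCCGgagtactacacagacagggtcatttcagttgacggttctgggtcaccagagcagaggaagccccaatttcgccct
POLR1A: atgtcgttcctgcgaCCGcttCCGcgcgc
GNL3: gcgtgacgctcgtcagtggcttc

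The UTP15 peak, of 181 bases and the second strongest of that gene, lay whole upstream of the RefSeq span, and the sequence at hand held 161 of its bases. This stretch held 3 CCG and 3 CGG. Of 35116 windows of the same length and place 68.4% held CCG, and 77.2% held CCG or CGG. The POLR1A stretch held 2 CCG (38.7% of windows with at least 1) and the GNL3 stretch none (34.7% of windows with at least 1). The GNL3 stretch is upstream of the start in the sequence table but lies inside the gene span, 89 bases after its first base. The POLR1A peak had −log10 p 5.4 and the GNL3 peak, in the gene of the GTPase nucleostemin, −log10 p 4.72. Neither was overlapped in the knockout. A match of 3 letters is a description and marks no acetylated base.

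The MPP10 complex of the small subunit precursor showed each class in turn. IMP3 had the widest SiHa peak among the members, 746 bases at chr15:75639115-75639860 (−log10 p 144.0), which ended 22 bases before the 3′ end of the gene. A second IMP3 peak (−log10 p 4.96) carried the same identifier but lay outside the RefSeq span, on its 5′ side. IMP4 had 2 knockout peaks alone, at chr2:130346060-130346240 (fold 100, −log10 p 23.8) and chr2:130344658-130344838 (fold 7.69). The second had a false discovery rate of 0.47, the only member peak above 0.05. The deposited rate did not follow p, however. The weaker NOP56 knockout peak (−log10 p 2.56, against 2.63 here) had a rate of 0.035. MPHOSPH10 had SiHa peaks at 12.6 and 13.9% of its span and knockout peaks at 54.7 and 99%, so its peaks stood well apart.

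Among the 12 other small subunit factors, 4 had a SiHa peak alone and 4 had peaks in both lists. Over all named genes with a SiHa peak, 71.8% had it alone. BMS1, a GTPase, had SiHa peaks of 330 bases at chr10:42796499-42796828 (−log10 p 86.8) and 211 bases (−log10 p 30.8). A BMS1 knockout peak of 180 bases (fold 4.07) lay wholly inside the first and shared its last base. EMG1, an rRNA methyltransferase, had a SiHa peak of 271 bases at chr12:6975567-6975959 (−log10 p 53.3) and a knockout peak (fold 29.5) 2664 bases away. UTP14A, a cofactor of a processing helicase, had 4 SiHa peaks. The UTP14A knockout peak of 180 bases (fold 6.15) shared 120 bases with a SiHa peak of 180 bases at chrX:129921470-129921649 (−log10 p 6.89). RRP12 had 3 SiHa peaks in the last part of its span, at 78.7, 95 and 98.7%, and a knockout peak (fold 13.5) at 24.1%. The members with SiHa peaks alone were the small subunit assembly factors NOP14 (strongest −log10 p 37.9), BYSL (−log10 p 17.8), TSR1 (−log10 p 5.34), a relative of the GTPase BMS1, and NOL10 (−log10 p 3.43).

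Of the 10 large subunit factors 7 had a SiHa peak. Of these, 2 also had a knockout peak and 5 had none, where 71.8% of all named genes with a SiHa peak had none. None of the 9 SiHa peaks was overlapped, where the share over all named genes was 6.89%. NOP2, an rRNA cytosine methyltransferase, had a SiHa peak of 538 bases at chr12:6556923-6557460 (−log10 p 86.3) that ended 52 bases before the 3′ end of the gene. PES1 and BOP1, which form a complex with WDR12, had SiHa peaks that ended 180 and 87 bases before their 3′ ends, with −log10 p of 2.18 and 3.82. PES1 had a second, stronger peak (−log10 p 12.9). The helicase gene DDX18 had 1 SiHa peak (−log10 p 4.85). In the helicase gene DDX56, a SiHa peak of 240 bases (−log10 p 40.3) and a knockout peak of 180 bases (fold 30.8) were separated by 29 bases. In RRP1B, SiHa peaks of 181 and 269 bases (−log10 p 4.72 and 6.72) each had a knockout peak nearby, 148 and 328 bases away. The RRP1B knockout folds were 10.9 and 42.3, with −log10 p of 27.4 and 18.9. The depth of either list is unknown, so these p are not ranked against those of the SiHa peaks.

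**Figure D3:**
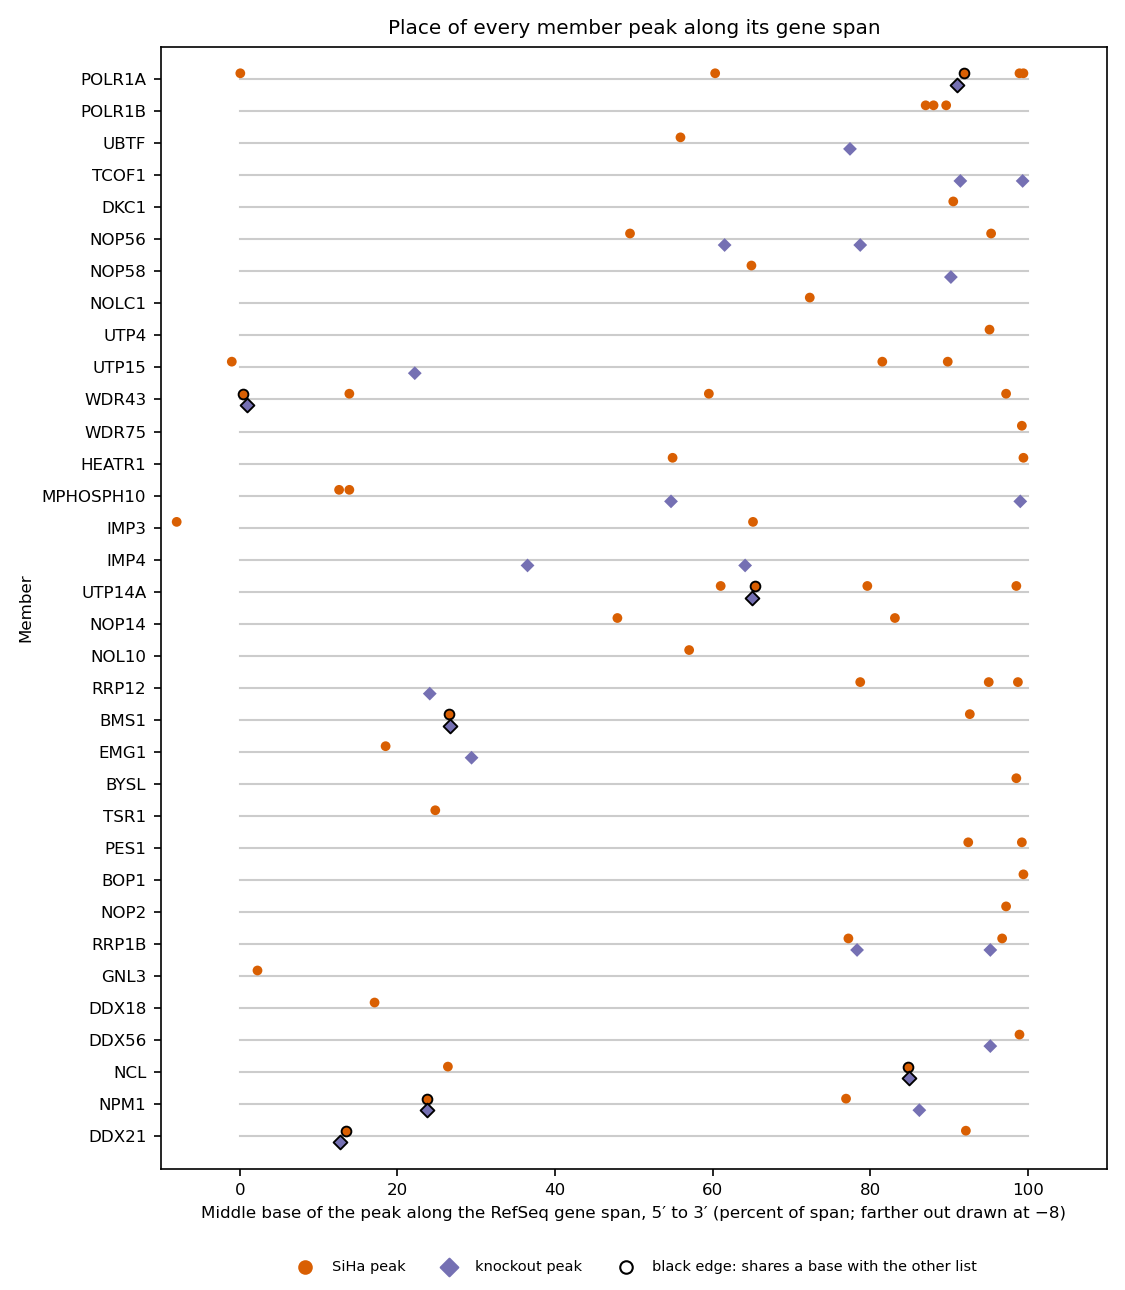
Place of the middle base of each peak along the RefSeq gene span of the 34 members with a named peak (x axis, percent of the span from 5′ to 3′, introns included; y axis, member). Orange circles are SiHa peaks, purple diamonds knockout peaks, and black edges mark peaks that share a base with the other list, which occur in 7 members. The second IMP3 peak lies farther out and is drawn at the left edge.

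The place of SiHa peaks relative to the 3′ end of the gene span depended on the measure. Their median position was 78.7% of the span in members and 83.7% in all named genes, so by this measure member peaks lay less far 3′. The median span of genes with a SiHa peak was 24.3 kb in members and 34.6 kb in all named genes. A fixed distance of 1 kb is a larger part of a shorter span, but whether span length bears on the shares below was not tested. In the other ribosome biogenesis genes, with a median span of 16.1 kb, 21.6% of SiHa peaks ended within 1 kb of the 3′ end. Of the 59 SiHa peaks of members 16 (27.1%, exact interval 16.4 to 40.3%) ended within 1 kb of the 3′ end. The share for all named genes was 18.8%, inside that interval. This and the other intervals over peaks count each peak as a separate draw, though 1 gene can hold several, so they decide nothing about a difference. The 16 peaks fell in 13 of the 32 members (40.6%), compared with 29.6% of all named genes with a SiHa peak. Among members with a SiHa peak alone, 9 of 22 peaks (40.9%, interval 20.7 to 63.6%) ended there, in 8 of the 16 genes: DKC1, WDR75, HEATR1, IMP3, BYSL, PES1, BOP1 and NOP2. Among members with peaks in both lists the share was 7 of 37 (18.9%). The corresponding shares over all named genes were 20.4 and 15.8%. At the 5′ end, 5 member peaks (8.47%) started within 1 kb, against 9.3%. Distances were measured on gene spans, without exons.

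SiHa peaks of members spanned more than 1 block in 26 of 59 cases (44.1%), against 25.3% for all named genes. Their median length was 210 bases, with a range of 121 to 746, against a median of 181. Members had 1.84 SiHa peaks per gene and all named genes 1.81. Members with peaks in both lists had 2.31 peaks per gene and a median strongest −log10 p of 40.3, while those with a SiHa peak alone had 1.38 and 11.6. The same order was seen over all named genes, with 2.17 and 16.2 against 1.66 and 8.05.

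**Figure D4:**
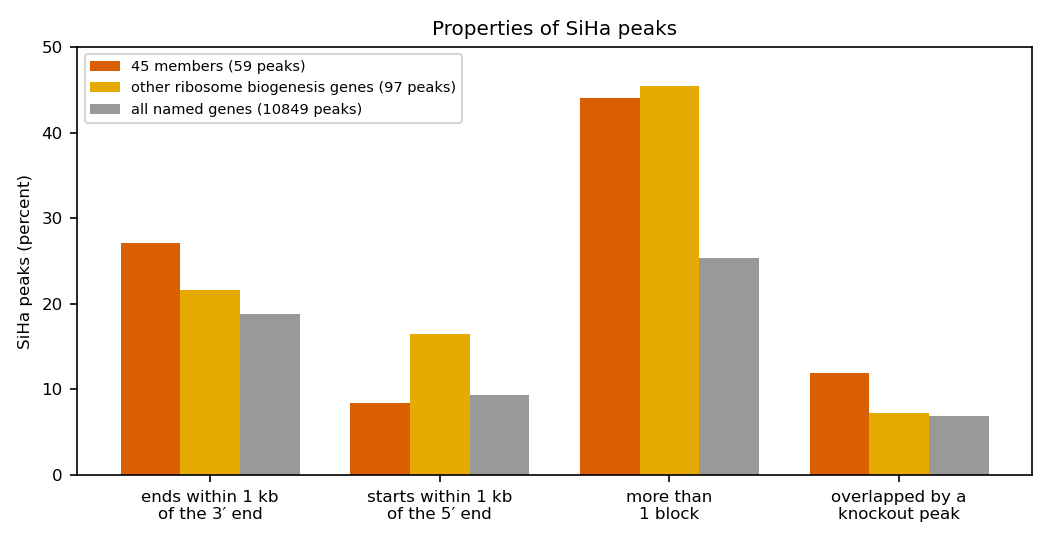
Share of SiHa peaks (y axis, percent) with each of 4 properties (x axis) in the members (orange, 59 peaks), the other ribosome biogenesis genes (yellow, 97 peaks) and all named genes (grey, 10849 peaks). Peaks of more than 1 block made up 44.1, 45.4 and 25.3%.

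The 24 knockout peaks of members had a median fold of 11.9 (range 3.57 to 100), against 12.8 for all named genes, and a median −log10 p of 8.18, against 5.55. In the knockout list many peaks share exactly the same p and fold, with folds that are whole multiples of 2.56 within rounding and a shared p that, at the folds of the member peaks named next, is the weakest listed. Such peaks, called the repeated series, made up 6 of the 24 (25%, interval 9.77 to 46.7%) and 43.8% over all named genes. They were the peaks of POLR1A, DDX56 and UTP15, the stronger IMP4 peak and the weaker peak by p of NPM1 and of MPHOSPH10. The UTP15 and NPM1 peaks had the p and fold of 136 knockout peaks of the list, and the POLR1A and DDX56 peaks those of 50. Shared values were not confined to this series. The weaker IMP4 peak had the p and fold of 50 knockout peaks, the UBTF peak of 14 and the UTP14A peak of 12. For the weaker NOP56 peak it was 11, for RRP12 7, for the RRP1B peak of fold 42.3 5, for EMG1 3 and for DDX21 2. Of the overlapping pairs, only that of POLR1A involved a peak of the repeated series, while those of UTP14A and DDX21 involved peaks with shared values off it. Of the member knockout peaks 7 (29.2%) were overlapped by a SiHa peak, against 20.0% over all named genes.

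**Figure D5:**
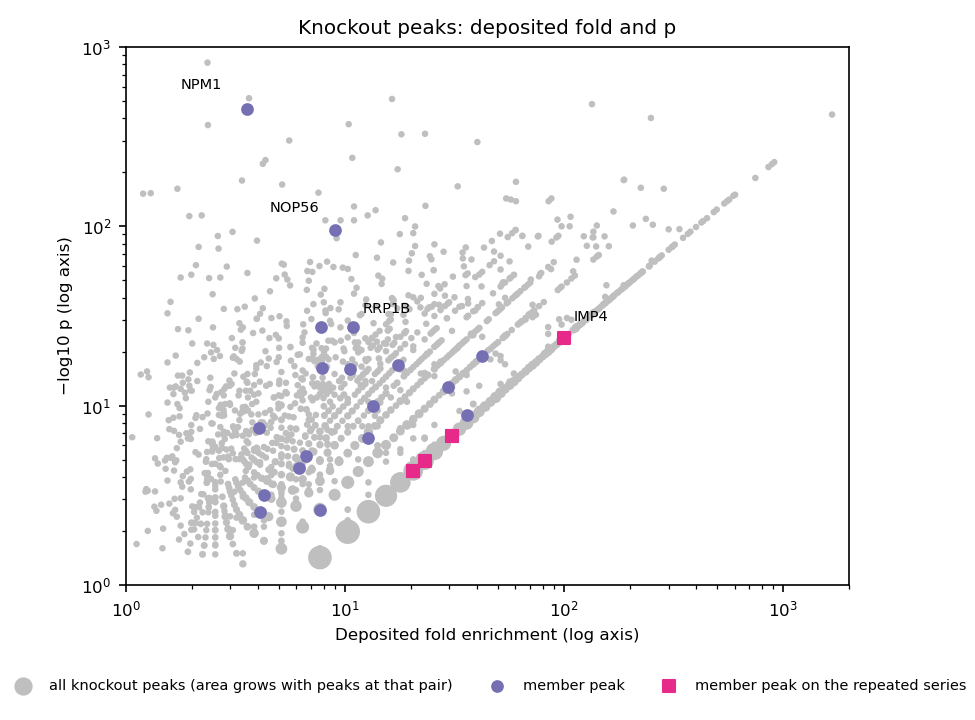
Deposited fold enrichment (x axis, log scale) and −log10 p (y axis, log scale) of knockout peaks. Grey circles are all knockout pairs of fold and p, with area growing with the number of peaks at that pair; purple circles are member peaks and pink squares the 6 member peaks on the repeated series, which forms the lower edge of the cloud. NPM1 stands at a fold of 3.57 with the highest −log10 p among members.

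The wider pathway was followed in 126 other ribosome biogenesis genes. Of these 66 had a SiHa peak and 22 a knockout peak. Peaks were in SiHa alone for 50 (75.8% of 66, exact interval 63.6 to 85.5%), in both lists for 16 and in the knockout alone for 6. This share lay near the 71.8% of all named genes. The strongest with a SiHa peak alone were the helicase gene DDX24 and WDR3, each with p listed at 0, and RSL1D1 (−log10 p 320.0). The counts also include a peak of 164 bases named WDR74 by its span, but all of its bases lie in the nested small nuclear RNA gene RNU2-2, so it is not read as a peak of WDR74. Without it and RRP7A, whose peak bases lie in a pseudogene span as well, 49 of 64 genes (76.6%) had a SiHa peak alone. No member's name rested on such a nested gene. Those with peaks in both lists included the polymerase I subunit genes POLR1G (p listed at 0), POLR1D (−log10 p 136.0) and POLR1F (−log10 p 99.2), and PELP1 (−log10 p 248.0). The highest folds among knockout peaks alone were 68.6 in KRI1, 46.1 in EXOSC10, an exosome nuclease, 23.7 in NOP53 and 20.5 in NOL11. Among the 97 SiHa peaks of these genes 7 (7.22%) were overlapped in the knockout. NAT10 belongs to this list and had 1 SiHa peak (−log10 p 36.3) and none in the knockout.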

How the data were processed

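The library kit keeps strand, per the labels' protocols. FastQC 0.11.7 and GRCh38 appear in the submitters' processing notes. For the aligner, peak caller, annotation and combination of replicates, no source used here gives a name or rule. The authors deposited a p-value per peak in both lists and, in the knockout list, log10 of p and of the false discovery rate (treated as a score, since p reaches beyond the usual log range) and a fold enrichment, a ratio with no stated reference. Left out were 1 repeated line and 3 peaks off the chromosomes in SiHa, and 2 peaks off them in the knockout.

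The files pair no identifiers with symbols. An identifier took the symbol of a RefSeq gene span (protein-coding or lncRNA) when its peaks touched that span alone on the same strand, it held at least 50% of their bases, and no other identifier claimed it. Strand was listed for 27305 of 38386 spans, and the others could match either strand. Of 9046 identifiers 7356 (81.3%) were named, 708 touched several spans, 430 shared a span, 45 had too few bases in it and 507 lay outside. Peaks overlapped when blocks on 1 strand shared at least 1 base. Coordinates are 1-based. Overlap and naming were tested on simulated data. The analysis used Python 3.11.15, pandas 2.3.3 and scipy 1.17.1.

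Members and lists were chosen with earlier results of these data known. Every member with a peak is named. Positions are given for members with overlapping peaks, the 10 with the strongest SiHa peak and those with a knockout peak alone, and up to 4 genes of each class of the wider list are named by strength. A few further positions were added after the values were seen.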

Additional observations from a re-analysis of the deposited data

How the results depend on the processing

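No paired analysis was possible because the lists hold no values for single replicates, and leaving out a replicate could not be run for the same reason. Under 11 alternatives 24 counts were recomputed, and 20 stayed within 1.5 times the reported count. When only the strongest SiHa peaks were kept, in the number of the knockout list, 21 members had a SiHa peak and 9 of these no knockout peak (42.9%, against 64.6% of all named genes). With only peaks of −log10 p above 8, 10 members had a knockout peak, and 69.6% of members with a SiHa peak had none in the knockout, against 83.9%. Counting by overlap, 25 members had no overlapped SiHa peak. Without the repeated series the share was 59.4%, against 81.3%, and with names given without the strand 52.0%, against 72.7%. An alternative added after seeing the data left out 91 names whose peak bases lay for at least 50% in a nested gene that is neither protein-coding nor lncRNA, and the members' share stayed at 50%, against 71.6%. In each of these settings the member share was below that of all named genes. Depth and expression are unknown, so a missing peak cannot be set against a detection limit.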

Other observations

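Genes for small nucleolar RNAs lie inside the spans of 9 members, among them NOP56 with 5 and GNL3 with 5. Of the 59 SiHa peaks of members none covered a base of such a gene (exact interval up to 6.06%), and of the 24 knockout peaks 1 did. This was the weaker NOP56 knockout peak at chr20:2656084-2656264 (−log10 p 2.56, fold 4.1). It covered the whole of SNORD86, which lies at chr20:2656097-2656182. Over all peaks the shares were 0.108% in SiHa (14 of 12924) and 0.263% in the knockout (12 of 4557), with exact intervals of 0.0592 to 0.182% and 0.136 to 0.46%.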
